A study of Mus musculus with 6 samples.

Results

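Markers of foregut and surface epithelium were followed in hearts of C57BL/6N mouse embryos at E10.5, 3 wild type (WT) and 3 knockout (KO) for Rnd3, the gene that the labels call RhoE. The markers are 10 genes, Epcam, Cdh1, Krt8, Krt18, Krt19, Cldn6, Cldn7, Foxa1, Foxa2 and Nkx2-1, taken as all 13 probe sets that carry exactly 1 of these symbols, out of 18193 genes and 34945 such probe sets on the array. The knockout is a global gene trap, which the design text describes as lethal from this stage on. The design text speaks of littermate pairs. No label ties a replicate number to a litter or says whether an array holds 1 heart or several, so the p-values measure the spread between these arrays, which may be technical.

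Epithelial cells form sheets held together by E-cadherin, the product of Cdh1, and sealed by claudins such as Cldn6 and Cldn7. Epcam encodes a cell-surface adhesion molecule of most embryonic epithelia, and Krt8, Krt18 and Krt19 encode keratins of simple epithelia, in which Krt8 pairs with Krt18. Foxa1 and Foxa2 encode pioneer transcription factors of gut endoderm, and Nkx2-1 encodes a factor of the thyroid and lung parts of the foregut. At mid-gestation the heart lies just ventral to the foregut and pharynx. The mesothelium and the epicardium also make simple keratins. In bulk RNA, fewer cells of a type and less RNA per cell cannot be told apart.

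Among the markers, the promoters of Krt8, Krt18 and Epcam are shown first, because they share a short motif and because Krt8 and Krt18 had the smallest p-values of the list. The motif is the E-box CACCTG, or CAGGTG on the other strand, a sequence known to be bound by repressors of epithelial genes such as Zeb1, Zeb2, Snai1 and Snai2. Each line gives the 250 bases before the annotated start, 5′ to 3′ along the gene (RefSeq, build GRCm38.p6), with the E-box in capitals.
Krt8, chr15:102004343-102004592, minus strand: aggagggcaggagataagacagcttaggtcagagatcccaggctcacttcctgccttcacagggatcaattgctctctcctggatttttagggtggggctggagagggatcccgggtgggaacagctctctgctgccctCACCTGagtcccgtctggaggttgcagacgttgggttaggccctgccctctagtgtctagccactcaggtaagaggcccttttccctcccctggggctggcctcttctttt
Krt18, chr15:102027966-102028215, plus strand: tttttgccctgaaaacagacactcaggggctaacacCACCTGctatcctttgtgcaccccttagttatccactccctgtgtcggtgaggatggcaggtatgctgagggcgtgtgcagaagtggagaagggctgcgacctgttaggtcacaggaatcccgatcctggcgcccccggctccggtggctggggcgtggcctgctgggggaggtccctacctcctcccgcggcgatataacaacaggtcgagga
Epcam, chr17:87635729-87635978, plus strand: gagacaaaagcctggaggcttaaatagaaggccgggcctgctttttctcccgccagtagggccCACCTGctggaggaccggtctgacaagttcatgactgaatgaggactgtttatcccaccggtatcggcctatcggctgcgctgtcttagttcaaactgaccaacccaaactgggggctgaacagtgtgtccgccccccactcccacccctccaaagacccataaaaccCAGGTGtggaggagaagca
Krt8 and Krt18 both lie on chromosome 15, and the RefSeq annotation has 2 genes between them, of which 0 are protein-coding.

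The E-boxes of Cldn6, Cldn7 and Foxa1 follow with 12 bases on each side, so that the motif can be read in its context.
Cldn6, chr17:23679260-23679289, plus strand: gggaaacgcacgCAGGTGgctatcgccgca
Cldn7, chr11:69965312-69965341, plus strand: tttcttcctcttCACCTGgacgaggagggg
Cldn7, chr11:69965352-69965381, plus strand: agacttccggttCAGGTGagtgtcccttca
Foxa1, chr12:57546117-57546146, minus strand: gcggccgcctcaCAGGTGcacctcgggctt
Promoter windows of 7 of the 10 markers, all but Cdh1, Krt19 and Nkx2-1, were searched, and 6 of these 7 held at least 1 E-box. The set of windows held none for Cdh1 and Krt19, and Nkx2-1 was left out before the search. The marker share below therefore covers only the 7 markers searched. The matches began 111 bases before the start in Krt8, 214 in Krt18, 187 and 19 in Epcam, 93 in Cldn6, 97 and 57 at the second start of Cldn7, and 23 in Foxa1. The 3 windows of Foxa2 and the first window of Cldn7 held none, which says only that these letters are not in those windows. Of all 32850 windows of this length searched 17.2% held an E-box, against 60% of the 10 marker windows. By gene, 18.6% of the 10244 genes tested that have a window did, and 19.4% of all genes with a window. Of the 7 markers, tested or not, 85.7% did. Of 15 other junction and polarity genes of epithelia 73.3% had it, as did 44.4% of 9 further keratin and desmosome genes, 33.3% of 9 regulators of epithelial identity, 41.2% of 17 heart muscle genes, 14.3% of 14 foregut and pharyngeal endoderm regulators and 8.33% of 12 mesenchymal genes and repressors. The marker windows had a GC content of 50.8% to 67.2%, with a median of 57.2%, against a median of 52.4% over all windows. A match is a description of the sequence and was not tested as a binding site.

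**Figure D1:**
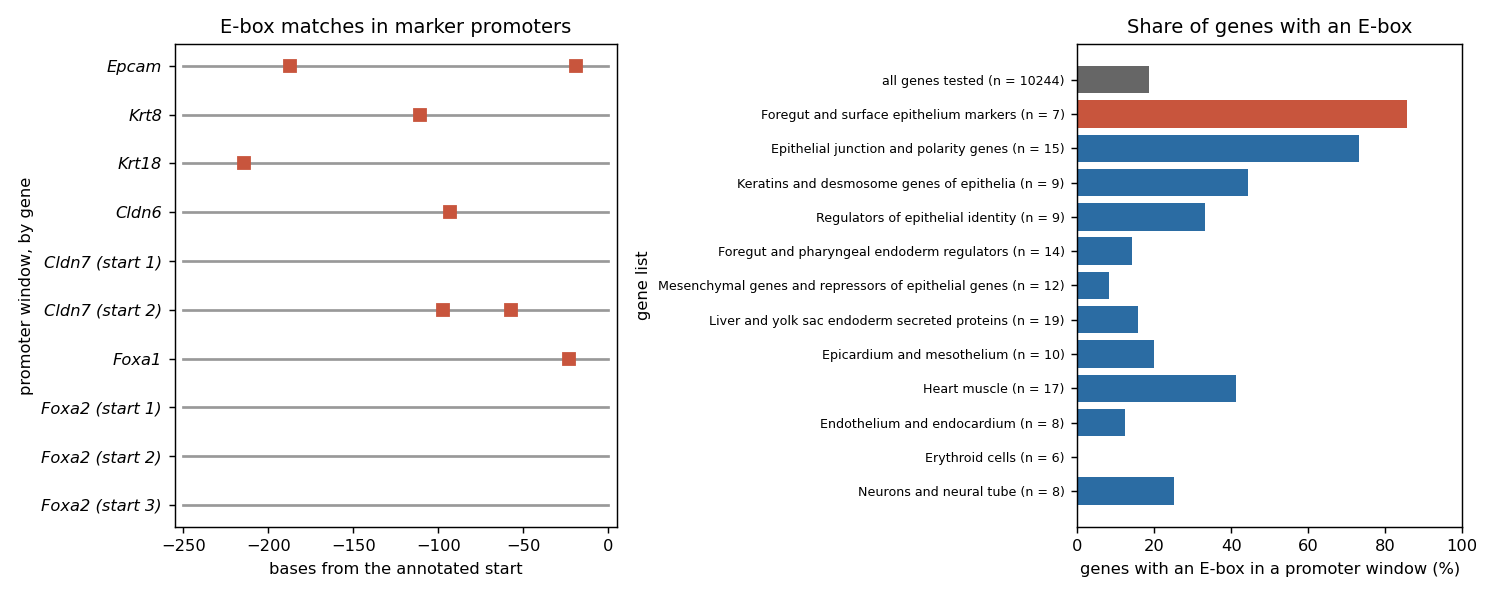
Left, E-box matches (squares) along the 250 bases before each annotated start of the markers (x axis, bases from the start); right, the percentage of genes with an E-box in each list. E-boxes lie in 6 of 7 marker genes, at distances from 19 to 214 bases, and in 18.6% of the genes tested.

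The values are MAS5 signals, a linear intensity per probe set scaled to the same trimmed mean on every array. A low-signal limit was set on each array at its 40th percentile, 44.5 to 52.8, and a gene was tested if its brightest probe set lay above the limit on at least 3 of 6 arrays. For arrays, the number per group, 3, limits the precision. The targeted gene was low in KO. Rnd3 signals on the WT arrays were 909, 954 and 862, and on the KO arrays 5.89, 12.3 and 121, of which KO array 3 alone was above the limit (log2 fold change -5.46, SE 0.81, limma adjusted p = 0.0342). All 17 heart muscle markers lay above the limit on all 6 arrays, with summed signals of 391826 to 427272 in WT and 373812 to 415399 in KO, so the markers of the labelled tissue were present. Xist, which marks female tissue, read 10251, 12474 and 11878 in WT, 539 and 28.4 on KO arrays 1 and 3, and 8884 on KO array 2. Genotype and the sex of the tissue therefore cannot be told apart for KO arrays 1 and 3. The Gapdh 3′ to 5′ signal ratio, which rises as RNA degrades, did not overlap between WT (1.11 ± 0.0175) and KO (0.969 ± 0.0274; SD, n = 3 per group). Its part in the results was not tested. KO array 1 correlated with the WT arrays at r = 0.98 to 0.981 across the genes tested and with KO arrays 2 and 3 at 0.976 and 0.978.

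No marker that could be tested differed between KO and WT past the threshold, and 3 of the 10, Cldn6, Foxa2 and Nkx2-1, were too dim to be tested. Of the 7 that could be tested, 0 were higher, 0 were lower and 7 did not pass an adjusted p of 0.05 in limma over all 12712 genes, where 1.27% of genes passed, 0.787% higher and 0.488% lower in KO. By sign alone, 6 of the 7 were lower in KO, against 56.2% of all genes tested. Cdh1 and Foxa1 passed the filter on 2 WT arrays and 1 KO array, and Cldn7 on 3 and 2. Their sign is therefore not independent of the filter. The sign of Krt19 turned in 6 of 17 alternative fits, that of Foxa1 in 2 of 16 and that of Cldn7 in 1 of 16. The median log2 fold change of the 7 was -0.41, and that of all genes -0.04. Krt8 and Krt18 were the only markers with an unadjusted p below 0.05, 2 of 7, where 20.3% of all genes had one, 11.8% with KO lower. They were also the 2 markers whose groups did not overlap, where 26.3% of all genes did not, 15.5% with KO lower. The summed signal of the 10 markers was 6084 to 6824 in WT and 3366 to 5753 in KO, a sum carried mainly by the 3 keratins.

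**Figure D2:**
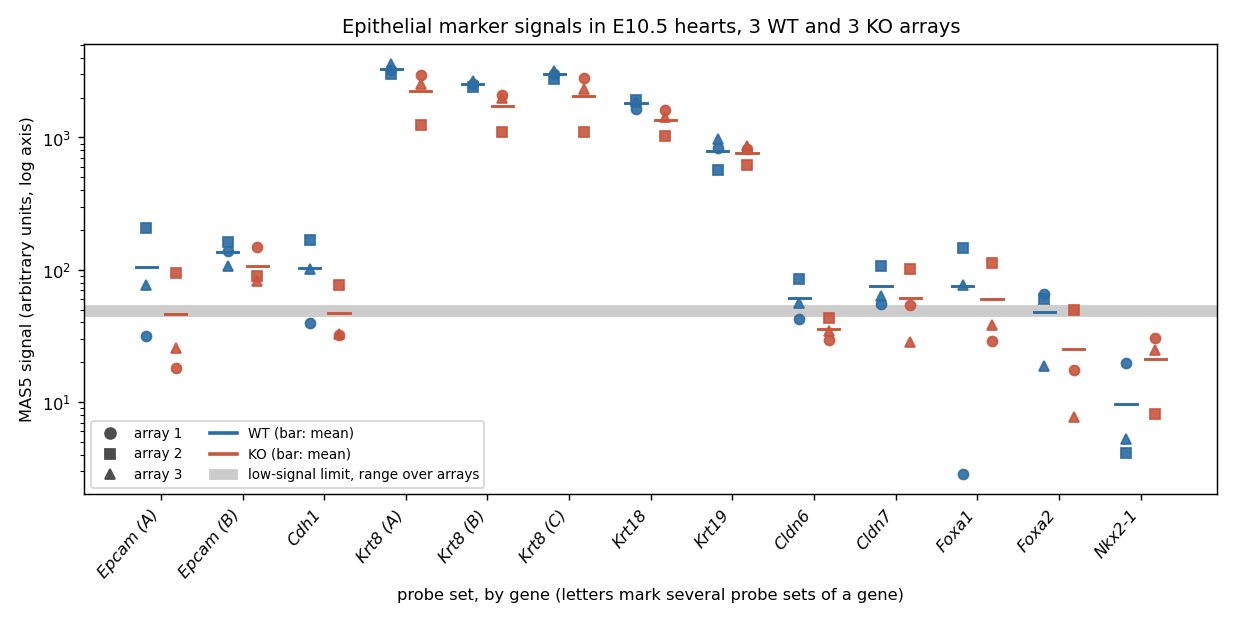
MAS5 signal (log axis) of the 13 marker probe sets on each of the 3 WT (blue) and 3 KO (red) arrays, with group means as bars and the range of the low-signal limit as a grey band. The keratins lie far above the band on every array, from 571 to 3563. Epcam (A), Cdh1, Cldn6, Cldn7, Foxa1 and Foxa2 lie on both sides of it, and Nkx2-1 lies below it on all 6.

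The keratins were bright on every array. Krt8 (probe set 1420647_a_at), the type II keratin of simple epithelia, measured 3240, 3006 and 3563 on the WT arrays against 2987, 1248 and 2556 on the KO arrays. All KO arrays were below all WT arrays, but KO array 1 only just, and KO array 2 was far lower than KO arrays 1 and 3. The means were 3270 ± 280 in WT and 2264 ± 906 in KO, a log2 fold change of -0.62 (SE 0.25, 95% interval -1.17 to -0.07, limma adjusted p = 0.193). Without KO array 2 the difference was -0.24 (adjusted p = 0.259). The other Krt8 probe sets were also lowest on KO array 2. Probe set B (1423691_x_at) stood at 2530, 2419 and 2674 in the WT hearts and at 2099, 1096 and 1998 in the KO hearts (log2 fold change -0.61, SE 0.20, adjusted p = 0.151 when every probe set was tested on its own, where 0.63% of probe sets passed). Probe set C (1435989_x_at) had WT signals of 3027, 2758 and 3195 and KO signals of 2794, 1104 and 2322, where KO array 1 was above WT array 2 and the groups overlapped (-0.63, SE 0.26, adjusted p = 0.238). Probe sets B and C carry the array maker's suffix for probes that may also bind other transcripts.

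Krt18 (1448169_at), the type I partner of Krt8, measured 1655, 1924 and 1856 on the WT arrays against 1613, 1017 and 1431 on the KO arrays. The groups did not overlap, although KO array 1 was close to WT array 1, and KO array 2 was again the lowest. The means were 1812 ± 140 in WT and 1354 ± 306 in KO, a log2 fold change of -0.44 (SE 0.15, 95% interval -0.78 to -0.11, limma adjusted p = 0.141). Without KO array 2 it was -0.25 (adjusted p = 0.242). Without KO array 1, Krt8 (-0.87, adjusted p = 0.0461) and Krt18 (-0.58, adjusted p = 0.0398) passed, in a fit where 7.21% of all genes did.

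Krt19, a smaller type I keratin that is also strong in mesothelium, overlapped between the groups. Its signals were 827, 571 and 978 in WT and 811, 621 and 864 in KO. Array 2 was the lowest in each group, and the KO values lay within the WT range, with means of 792 ± 206 and 765 ± 128. The log2 fold change was -0.03 (SE 0.19, 95% interval -0.45 to 0.39, adjusted p = 0.949), and its sign turned when the arrays were centred on their medians (0.03) or quantile normalized (0.0057).

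**Figure D3:**
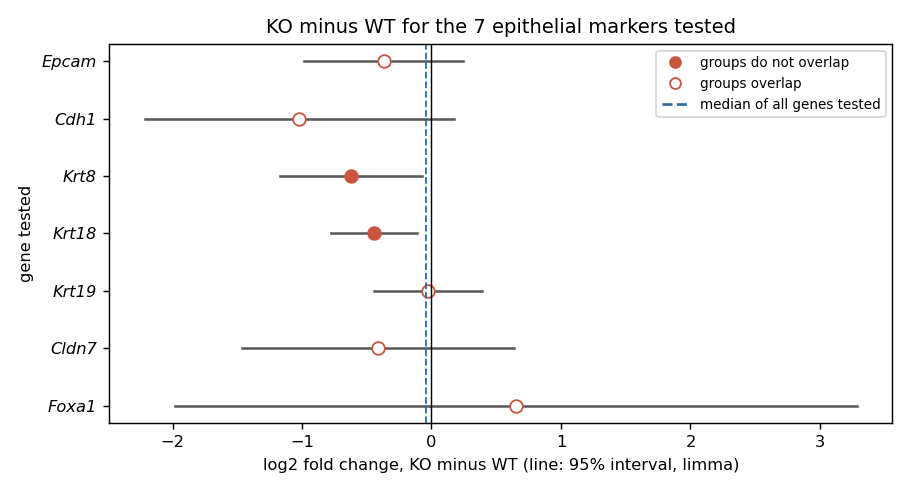
Log2 fold change, KO minus WT (x axis), of the 7 markers tested, with limma's 95% interval as a line; filled points mark genes whose groups did not overlap and the dashed line the median of all genes tested. The intervals of Krt8 (-1.17 to -0.07) and Krt18 (-0.78 to -0.11) lie below 0 before adjustment over all genes, and those of the other 5 include 0.

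The adhesion genes that define epithelium were dim in these hearts. Cdh1 (1448261_at) stood at 39.5, 168 and 102 in the WT hearts and at 32.4, 76.3 and 32.7 in the KO hearts. It lay above the low-signal limit on WT arrays 2 and 3 and on KO array 2, and the groups overlapped. The means were 103 ± 64.1 and 47.1 ± 25.3, a log2 fold change of -1.02 (SE 0.54, 95% interval -2.21 to 0.17, limma adjusted p = 0.319). The difference shrank to -0.55 (adjusted p = 0.707) without WT array 2 and was -1.59 (adjusted p = 0.199) without WT array 1.

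The 2 Epcam probe sets differed in their profiles. Probe set A (1416579_a_at) had WT signals of 31.5, 207 and 76.9 and KO signals of 18.2, 94.5 and 25.6, above the limit on the same 3 arrays as Cdh1. Its spread over the 6 arrays was 11.4-fold, and its log2 fold change was -1.17 (SE 0.73, adjusted p = 0.435 when every probe set was tested on its own). Probe set B (1447899_x_at), the brighter and the one that stands for the gene in the fit, measured 138, 163 and 106 on the WT arrays against 149, 89.6 and 82.6 on the KO arrays. It lay above the limit on all 6 arrays, with a 1.98-fold spread, and differed by -0.37 (SE 0.28, 95% interval -0.98 to 0.24, limma adjusted p = 0.491). The difference was -0.63 (adjusted p = 0.18) without KO array 1, -0.22 without WT array 2, -0.21 without KO array 3 and -0.77 (adjusted p = 0.427) with the probe sets averaged. Probe set B carries the suffix for probes that may bind other transcripts too. KO array 1 was the lowest of the 6 arrays in probe set A and the second highest in probe set B.

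The 5 genes nearest to Epcam, by the root mean square difference of their centred log2 profiles over the 6 arrays, were Mastl (0.0698), Itga3 (0.0959), Sohlh2 (0.104), Stxbp3 (0.107) and 2610024D14Rik (0.108). That ranking used probe set B. Among 12711 other genes Krt18 ranked 1248 and Cdh1 12431 in nearness to Epcam. In nearness to Krt8, Krt18 ranked 114, Krt19 2651, Epcam 3062, Cldn7 12324, Cdh1 12460 and Foxa1 12708. This comparison with Krt8 was chosen after its values were seen.

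Of the claudins, Cldn7 stood at 55.3, 106 and 63.0 in the WT hearts and at 54.1, 101 and 28.7 in the KO hearts. Array 2 was the highest in each group at almost the same level, and the groups overlapped (log2 fold change -0.41, SE 0.48, 95% interval -1.46 to 0.63, adjusted p = 0.667). Without KO array 3, the only array below the limit, the difference was 0.04, without WT array 2 it was -0.13, and without KO array 2 it was -0.87 (adjusted p = 0.378). Cldn6, a claudin of early embryonic epithelia, had WT signals of 42.1, 85.2 and 56.0 and KO signals of 29.4, 42.8 and 34.7. All 3 KO arrays and WT array 1 lay below the limit, so the gene was not tested, and the groups overlapped. With the limit in place of the KO signals the WT mean was 1.21-fold above it, and 1.004-fold without WT array 2, so that array alone set the difference.

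The foregut transcription factors were at or below the limit on most arrays. Foxa1 measured 2.87, 146 and 76.3 on the WT arrays against 28.9, 113 and 38.2 on the KO arrays. Array 2 was the highest in each group, and the groups overlapped. The log2 fold change of 0.65 (SE 1.20, 95% interval -1.98 to 3.28, adjusted p = 0.796) rested on the very low value of WT array 1. It was -0.38 with signals below the limit raised to it, and -1.08 (adjusted p = 0.396) without that array. Foxa2 stood at 65.6, 60.3 and 18.8 in the WT hearts and at 17.3, 50.1 and 7.73 in the KO hearts. WT array 3 and all 3 KO arrays were below the limit, and the groups overlapped. It was not tested, and no fold is given because the WT mean on the log2 scale was not above the limit of the KO arrays. Nkx2-1 lay below the limit on all 6 arrays, which gives no order between the groups; its signals were 19.9, 4.13 and 5.25 in WT and 30.6, 8.11 and 24.5 in KO. Just inside the rule for testing stood Foxa1 and Cdh1 with 3 arrays above the limit, and just outside it Cldn6 and Foxa2 with 2.

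Several dim markers shared an order of arrays across the genotypes. Epcam probe set A, Cdh1, Cldn6 and Foxa1 each ran from array 2 over array 3 to array 1 in WT, and in KO array 2 was again the highest for all 4, although every Cldn6 signal in KO was below the limit. Of the 7 markers tested, 3 (Cdh1, Cldn7 and Foxa1) had array 2 as the highest in both groups, where 11.9% of all genes tested did (32.3% for WT alone and 36% for KO alone). The shared order 2, 3, 1 in both groups held for 2 of 7, against 2.68% of all genes, though the KO values of arrays 1 and 3 lay below the limit and have no firm order. The keratins did the reverse in KO, where array 2 was the lowest for Krt8, Krt18 and Krt19; 37.1% of all genes tested had KO array 2 as their lowest. Array 2 of KO was also the KO array with a high Xist signal, and the part of the sex of the tissue in these values was not tested.

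**Figure D4:**
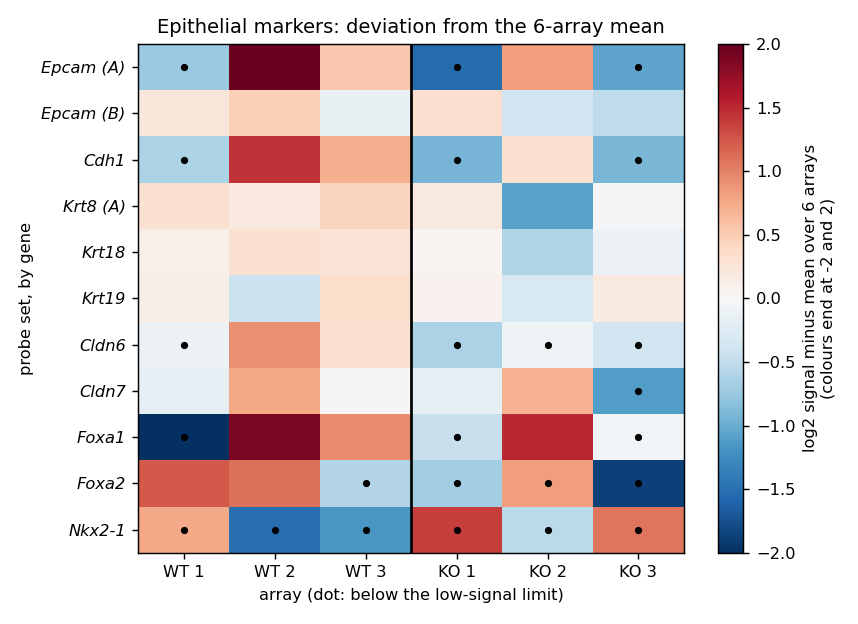
Log2 signal of each marker minus its mean over the 6 arrays (colour, ending at -2 and 2), for the brightest probe set of each gene and the further Epcam probe set A; dots mark signals below the low-signal limit. Cdh1, Cldn6, Cldn7, Foxa1 and Epcam (A) are highest on array 2 within each group, while Krt8 and Krt18 are lowest on KO array 2.

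The same array pattern was seen in several foregut and epithelial genes outside the marker list, named here after their values were seen. Sox2, a factor of foregut and neural epithelium, had WT signals of 72.0, 158 and 99.9 and KO signals of 68.6, 155 and 69.2. Shh, a signal secreted by foregut endoderm, measured 68.7, 113 and 86.0 on the WT arrays against 10.2, 146 and 21.4 on the KO arrays. Spint1, a protease inhibitor of epithelia, stood at 9.59, 94.9 and 61.6 in the WT hearts and at 10.3, 52.7 and 30.1 in the KO hearts. In each of these genes array 2 was the highest of its group, and the groups overlapped. Of 16 foregut and pharyngeal endoderm regulators tested, 5 had array 2 as the highest in both groups, where 11.9% of all genes tested did. So did 4 of 14 junction and polarity genes, 9 of 19 mesenchymal genes and repressors and 1 of 12 keratin and desmosome genes. The pattern held for 0 of 8 regulators of epithelial identity and 0 of 17 heart muscle genes. The mesenchymal list had the largest of these shares, so the pattern was not particular to foregut or epithelial genes.

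In the rest of the epithelial programme no gene passed the test either. Of 14 junction and polarity genes tested, 0 were higher, 0 were lower and 14 did not pass in limma (median log2 fold change -0.17). An unadjusted p below 0.05 was found for 2 of them, where 20.3% of all genes tested had one. Llgl2, a polarity gene, had WT signals of 580, 619 and 598 and KO signals of 473, 431 and 460, without overlap (-0.40, SE 0.11, limma adjusted p = 0.0859). Cdh3, which encodes P-cadherin, measured 553, 631 and 534 on the WT arrays against 456, 328 and 427 on the KO arrays, also without overlap (-0.52, SE 0.14, limma adjusted p = 0.0895). A further 8 genes of that list on the array were too dim to be tested, 6 of them below the limit on all 6 arrays.

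Of 12 keratin and desmosome genes tested, 12 did not pass (median -0.09). An unadjusted p below 0.05 was found for 2 of them, where 20.3% of all genes tested had one. Dsg2, a desmosomal cadherin that heart muscle also makes, differed by -0.25 (SE 0.09, adjusted p = 0.158) and Perp, a membrane protein of desmosomes, by 0.28 (SE 0.11, adjusted p = 0.194). Of the keratins of stratified epithelium in that list, named here after their values were seen, Krt14, Krt15 and Krt17 lay below the limit on all 6 arrays. Krt5, the usual partner of Krt14, lay above it on all 6, at 105, 106 and 95.5 in WT and 140, 64.4 and 71.3 in KO, with overlap (-0.24, adjusted p = 0.709). Of 8 tested regulators of epithelial identity 8 did not pass (median -0.10, 2 below 0.05 unadjusted), and 9 others, among them Esrp1, Ovol1 and Trp63, lay below the limit on all 6 arrays. Esrp2, a splicing regulator of epithelia, stood at 185, 142 and 166 in the WT hearts and at 115, 93.8 and 125 in the KO hearts, without overlap (-0.56, SE 0.21, adjusted p = 0.169). Of 16 foregut and pharyngeal endoderm regulators tested, 16 did not pass (median -0.14, 5 below 0.05 unadjusted, against 20.3% of all genes tested). Isl1, a factor of second heart field and pharyngeal endoderm, had WT signals of 1121, 1169 and 1082 and KO signals of 598, 800 and 1000, without overlap (-0.52, SE 0.16, adjusted p = 0.106).

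Mesenchymal genes and repressors of epithelial genes had a median log2 fold change of 0.04, and of 19 tested 19 did not pass. An unadjusted p below 0.05 was found for 3 of them, where 20.3% of all genes tested had one. Zeb1, whose product represses Cdh1 through E-boxes, measured 2556, 2233 and 2687 on the WT arrays against 1871, 1551 and 2041 on the KO arrays, without overlap (-0.46, SE 0.12, limma adjusted p = 0.0741). Cdh11, a mesenchymal cadherin, was higher by sign in KO without overlap, at 4593, 4809 and 4827 in WT and 5562, 7515 and 5665 in KO (0.38, SE 0.11, limma adjusted p = 0.0958). Twist1, a mesenchymal transcription factor, differed by -0.25 (SE 0.11, adjusted p = 0.223) and Tcf4, also in this list, by 0.30 (SE 0.14, adjusted p = 0.262), both with overlap. Averaging probe sets turned the sign of Tcf4 (-0.0205). The other repressors of E-box genes were chosen after their values were seen. The Zeb1 relative Zeb2 stood at 502, 504 and 490 in the WT hearts and at 457, 486 and 390 in the KO hearts, the groups lying side by side without overlap (adjusted p = 0.462). Snai1 had WT signals of 111, 115 and 83.5 and KO signals of 110, 147 and 110, and Snai2 measured 1664, 1930 and 1750 on the WT arrays against 1343, 2348 and 1650 on the KO arrays. The groups overlapped in Snai1 and Snai2, and KO array 2 had the highest Snai2 signal of the 6 arrays and the lowest Zeb1 signal.

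**Figure D5:**
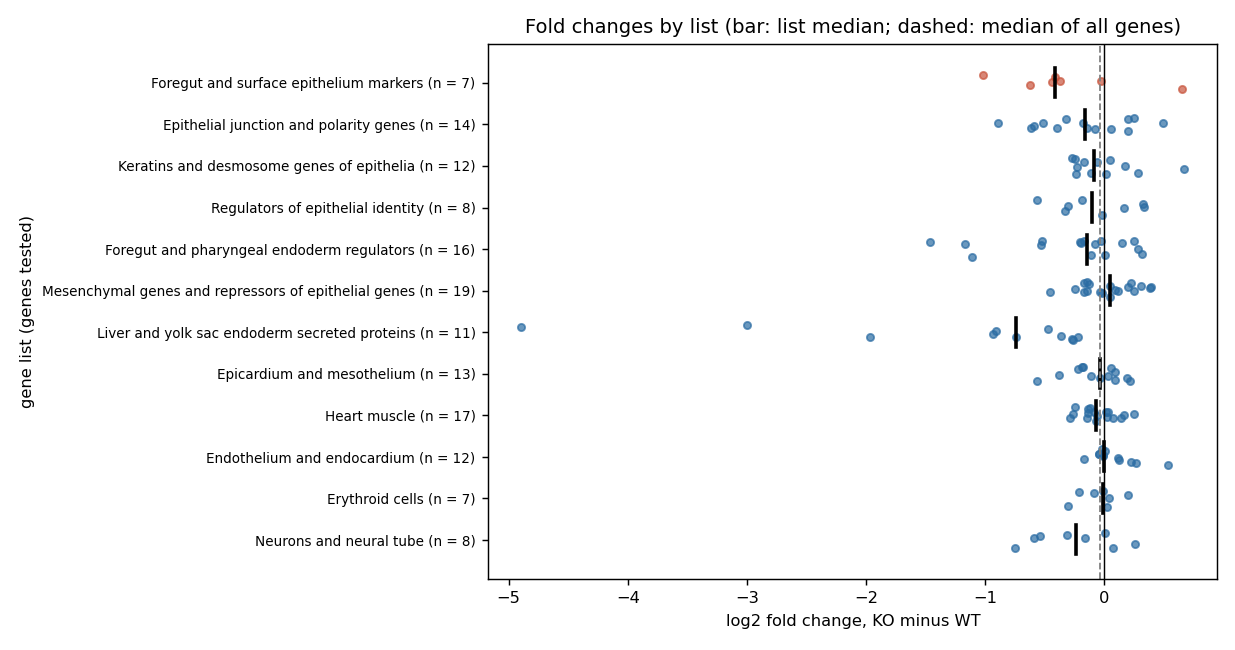
Log2 fold change, KO minus WT (x axis), of every tested gene in the marker list (red) and in the 11 other lists (blue), with list medians as bars and the median of all genes dashed. The marker median is -0.41 and that of liver and yolk sac endoderm -0.74, and the other lists have medians from -0.24 to 0.04.

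Secreted proteins of liver and yolk sac endoderm, another epithelium near the heart, were lower in KO by sign for 11 of 11 genes tested. Of all genes tested 56.2% were. The list had a median log2 fold change of -0.74. Some of its genes passed the filter only or mainly through WT arrays, so their sign is not independent of the filter. Habp2 was above the limit on 3 WT and 0 KO arrays, and Alb and Apom on 3 WT arrays and 1 KO array. Alb, serum albumin, fell, from 87.8, 148 and 183 in WT to 51.9, 36.8 and 20.7 in KO (-1.97, SE 0.42, limma adjusted p = 0.049997), with no overlap. Habp2, a plasma serine protease of liver, had WT signals of 86.0, 104 and 71.2 and was below the limit on all 3 KO arrays at 10.4, 12.6 and 9.51, at least 1.78-fold lower (limma adjusted p = 0.0389). Neither call held without any one of the WT arrays or without KO array 3 (adjusted p from 0.12 to 0.215), and that of Alb was also lost without KO array 2 (0.0781). Alb did not pass without the filter (adjusted p = 0.0781), with probe sets averaged (0.102), with every probe set on its own (0.0599), without the trend (0.206) or with the replicate block (0.053). Habp2 did not pass without the filter (0.0518) or with low signals raised to the limit (0.0842), where its log2 fold change was -0.83. The summed signal of this list was 2169 to 8488 in WT and 852 to 2612 in KO. Much of it was Afp, alpha-fetoprotein, at 1116, 2496 and 6054 in WT against 216, 1074 and 2.78 in KO (limma adjusted p = 0.125), and without Afp the sums were 1053 to 2433 in WT and 792 to 1538 in KO. The sum was highest on array 3 in WT and on array 2 in KO, with and without Afp. Epcam probe set A, Cdh1 and Foxa1 were highest on array 2 in both groups. Its part in the marker values was not tested.

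Epicardial and mesothelial genes mark another tissue that makes simple keratins. The groups overlapped in all 13 of these genes tested, and 13 did not pass (median -0.04, 2 below 0.05 unadjusted). Of all genes tested, 26.3% had groups without overlap and 20.3% an unadjusted p below 0.05. Their summed signal was 14908 to 16151 in WT and 11202 to 16714 in KO, and KO array 2, the lowest in Krt8 and Krt18, had the highest sum. The heart muscle sum was instead lowest on KO array 2, at 373812, against 391826 to 427272 in WT. The part of either tissue in the keratin values was not tested. Upk1b, a uroplakin gene of mesothelium, differed by -0.56 (SE 0.20, adjusted p = 0.15) and Podxl, a sialomucin, by -0.39 (SE 0.14, adjusted p = 0.157). None of the 17 heart muscle genes tested passed in limma (median -0.07, 4 below 0.05 unadjusted). The same held for 12 endothelial genes (-0.0046, 1 below), 7 erythroid genes (-0.01, 0 below) and 8 neural genes (-0.24, 1 below).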

How the data were processed

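Heart RNA of 6 samples, 3 WT and 3 KO by their titles, was hybridised to Affymetrix mouse arrays. The submitters' processing notes name MAS5 and Affymetrix Expression Console, without versions. What the authors deposited is 1 linear signal intensity for each probe set. In the values each array has the same trimmed mean. MAS5 subtracts mismatch signal, so dim probe sets are noisy.

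The 64 control probe sets were left out. Symbols came from the platform annotation (932 probe sets had several, 9160 none), and all 10 markers kept their symbol in RefSeq. For each gene the probe set with the highest mean log2 signal was used, if above the low-signal limit (40th percentile of the array) on at least 3 arrays. KO minus WT was tested with limma (version 3.58.1, under R 4.3.3) and an intensity trend, adjusted by Benjamini-Hochberg at 0.05; the procedure was tested on simulated data. "Rose" and "fell" are used only past it. A bound, "at least N-fold", sets the WT mean against the higher of limit and signal. The members, lists, naming rule (the 10 markers, up to 4 genes of smallest p per list, the 5 profiles nearest to Epcam) and alternatives were chosen with earlier results of these data known. Promoters of 3 markers were not used here. Figures used matplotlib 3.10.9.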

Additional observations from a re-analysis of the deposited data

How the results depend on the processing

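The number of genes past the threshold, 162 of 12712, rested on the processing. It was 83 with arrays centred on their medians over all probe sets and 312 over the genes tested, the latter chosen after seeing the data. Of these 80.7% and 81.1% were higher in KO, against 61.7% without centring. It was 1 without the filter, 291 with a filter on all 6 arrays, 0 with probe sets averaged, 1 without the intensity trend, and 0 to 916 leaving out 1 array, 916 without KO array 1. Over 17 alternatives no marker passed except Krt8 and Krt18 without KO array 1, so the marker count ran from 0 to 2. The marker median, -0.41, ran from -0.60 without WT array 1 to -0.21 without KO array 3.

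Signs turned for Krt19 with centring (0.0303 over all probe sets, 0.0210 over the genes tested), with quantile normalization (0.0057) and without single arrays (-0.25 to 0.14), for Foxa1 with low signals raised to the limit (-0.38) and without single arrays (-1.08 to 1.76), and for Cldn7 without single arrays (-0.87 to 0.0426). With probe sets averaged they turned for Dsp (0.0084), Gata6 (-0.11), Tcf4 (-0.0205) and Erg (-0.0336), and without single arrays for Klf1 (lowest -0.0125, highest 0.43). Without the filter, list medians moved to -0.32 for junction and polarity genes, 0.0592 for regulators of epithelial identity and -0.0783 for neural genes, the last being 0.0050 with probe sets averaged. Without single arrays these medians ran from -0.225 to -0.0163, from -0.15 to 0.0724 and from -0.39 to -0.14; those of mesenchymal genes ran from -0.10 to 0.11 and of endothelial genes from -0.0287 to 0.10. The 2 calls among liver and yolk sac genes became 0 without the filter, with the stricter filter and with probe sets averaged, and 1 with low signals raised, with every probe set on its own, without the trend and with the replicate block, and ran from 0 to 2 without single arrays. Leaving out single arrays gave up to 1 call among 14 junction, 12 keratin, 8 regulator, 13 epicardial and 12 endothelial genes tested. It gave up to 2 among 17 heart muscle genes and 3 among 19 mesenchymal genes. Of all genes tested, up to 7.21% passed in these fits, the highest share being that without KO array 1. The causes were not tested.

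With the replicate number as a block 189 genes passed, among them 1 mesenchymal gene and 0 markers. The block lowered the limma adjusted p of every marker tested, for Krt8 from 0.193 to 0.0792 and for Cdh1 from 0.319 to 0.19. Deviations of same-numbered arrays correlated at 0.02, 0.06 and 0.02. WT array 2 correlated best with KO array 2, and WT array 3 with KO array 3. WT array 1 correlated at 0.0206 with KO array 3 and at 0.0182 with KO array 1. Values this small cannot decide whether the numbers mark litters. No label states it, so the main fit did not take the numbers as pairs.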
